A study of Manihot esculenta with 32 samples.

Results

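The genes described here are 3 cassava (Manihot esculenta) genes with a fibrous root profile: Manes.05G167900 and Manes.05G168400, which the study names cytochrome P450, family 82, subfamily C, polypeptide 4 (CYP82C4), and Manes.04G119900, a 2-oxoglutarate (2OG) and Fe(II)-dependent oxygenase. The members were taken by gene ID. They lie on 4 of the 32732 loci that carry a gene name, because 2 loci bear the name Manes.05G168400. The 3 genes were chosen for their level in fibrous root, so that level is given as a description and was not tested.

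CYP82C enzymes are cytochrome P450 monooxygenases. In Arabidopsis roots, CYP82C4 hydroxylates the coumarin fraxetin to sideretin, a small catechol that is secreted and reduces and mobilizes ferric iron in the soil. Other enzymes of that Arabidopsis route belong to the 2OG-Fe(II) oxygenases, a large family that uses 2-oxoglutarate, oxygen and ferrous iron to hydroxylate or desaturate small molecules, and the products leave the root through transporters of the pleiotropic drug resistance (PDR) type. Which molecules the cassava enzymes act on was not measured here.

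The study sampled 11 tissue/organ types of cassava cultivar TME204 as 32 RNA sequencing libraries, with 3 libraries per type and 2 for storage root. Leaf, midvein, petiole, stem, lateral bud, storage root, fibrous root, the shoot apical meristem (SAM) and the root apical meristem (RAM) came from plants 3 months old, raised from micropropagated plantlets in a glasshouse. The organized embryogenic structures (OES) and the friable embryogenic callus (FEC) were grown in culture, and the sources differ on the age of the FEC. All groups are of that cultivar, but OES and FEC grew on different media, both with the auxin picloram, so tissue and culture conditions cannot be told apart for them. Each SAM or RAM library is a pool of 6 meristems prepared with another RNA kit, so tissue and preparation cannot be told apart there. In bulk tissue, fewer cells of a type and less RNA per cell cannot be told apart either.

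The libraries hold 4175114 to 24123487 fragments on named loci, and the fibrous root libraries 1, 2 and 3 hold 11720682, 11342962 and 9463794. Levels are in FPKM (fragment counts scaled to transcript length and library size). The summed level of 23 photosystem and light harvesting loci was 42772 to 52267 FPKM in leaf and 74.2 to 81.1 FPKM in fibrous root. The 2 loci annotated as root hair specific summed to 57.6 to 80.7 FPKM in fibrous root and to 155 to 229 FPKM in storage root, so they did not mark fibrous root. No locus carried an annotation of the Casparian strip, and root cell layers were not checked further.

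Manes.04G119900, the 2OG oxygenase, was the most abundant member. Its level was 79.4, 100 and 61.4 FPKM in fibrous root 1, 2 and 3, which rest on 987, 1072 and 601 fragments. In the other 29 libraries it stood at 0 in 27, at 1 fragment in lateral bud 2 (0.0742 FPKM) and at 2 fragments in RAM 3 (0.254 FPKM). The gene was chosen for its fibrous root level, so the lack of overlap with any other tissue/organ type is a description only. Every library outside fibrous root lay at or below 3 fragments, the number that a count of 0 still allows. That floor corresponds to 0.109 to 0.694 FPKM for this locus, depending on the depth of the library. Against leaf and against storage root, where it was at 0 throughout, the mean of 80.4 ± 19.5 FPKM (SD, n = 3) was at least 202-fold and at least 244-fold higher, with a floor of 3 fragments per library. Against RAM the pooled fragments gave a ratio of 1082, with a 95% exact (Clopper-Pearson) counting interval of 299 to 8936.

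Manes.05G167900, one of the CYP82C4 genes, showed the same contrast with another order of the fibrous root libraries. It stood at 45.3, 57.6 and 94.9 FPKM (1005, 1146 and 1682 fragments), a mean of 65.9 ± 25.8 FPKM (SD, n = 3). It was at 0 in 21 of the other 29 libraries. In the remaining libraries it had 1 or 2 fragments, at most 0.103 FPKM, in RAM 2. The 3 RAM libraries all had at least 1 fragment (0.0633, 0.103 and 0.0705 FPKM), whereas petiole, stem, lateral bud and OES had none. All these values lie under the floor of 3 fragments (0.0601 to 0.383 FPKM), so no order among the tissue/organ types outside fibrous root can be read from them. The pooled ratio of fibrous root to RAM was 779 (304 to 2862), from 3833 and 4 fragments.

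Manes.05G168400, the other CYP82C4 gene, was lower in fibrous root and was also detected elsewhere. Its first locus, the one with an annotation, lies on chromosome 5 from 23374848 to 23376761 of the AM560-2 v6.1 assembly. The locus stood at 30.0, 37.1 and 23.2 FPKM in fibrous root (639, 709 and 395 estimated fragments), a mean of 30.1 ± 6.97 FPKM (SD, n = 3). Outside fibrous root it reached 1.85 FPKM in petiole 1, on 30.0 fragments, and 17 of the 29 libraries held more than 3 fragments. The order of the means was petiole (1.19 ± 0.605 FPKM), stem (1.13 ± 0.134), storage root (0.984 ± 0.272, n = 2), midvein (0.844 ± 0.493), RAM (0.589 ± 0.532), lateral bud (0.333 ± 0.145) and OES (0.0964 ± 0.0885). Neighbours from petiole to lateral bud differ by less than the larger of their SDs. Leaf, SAM and FEC stayed at or below 2 fragments in each library, and so did RAM 1, in contrast with 19.3 fragments in RAM 2 and 9.99 in RAM 3.

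**Figure D1:**
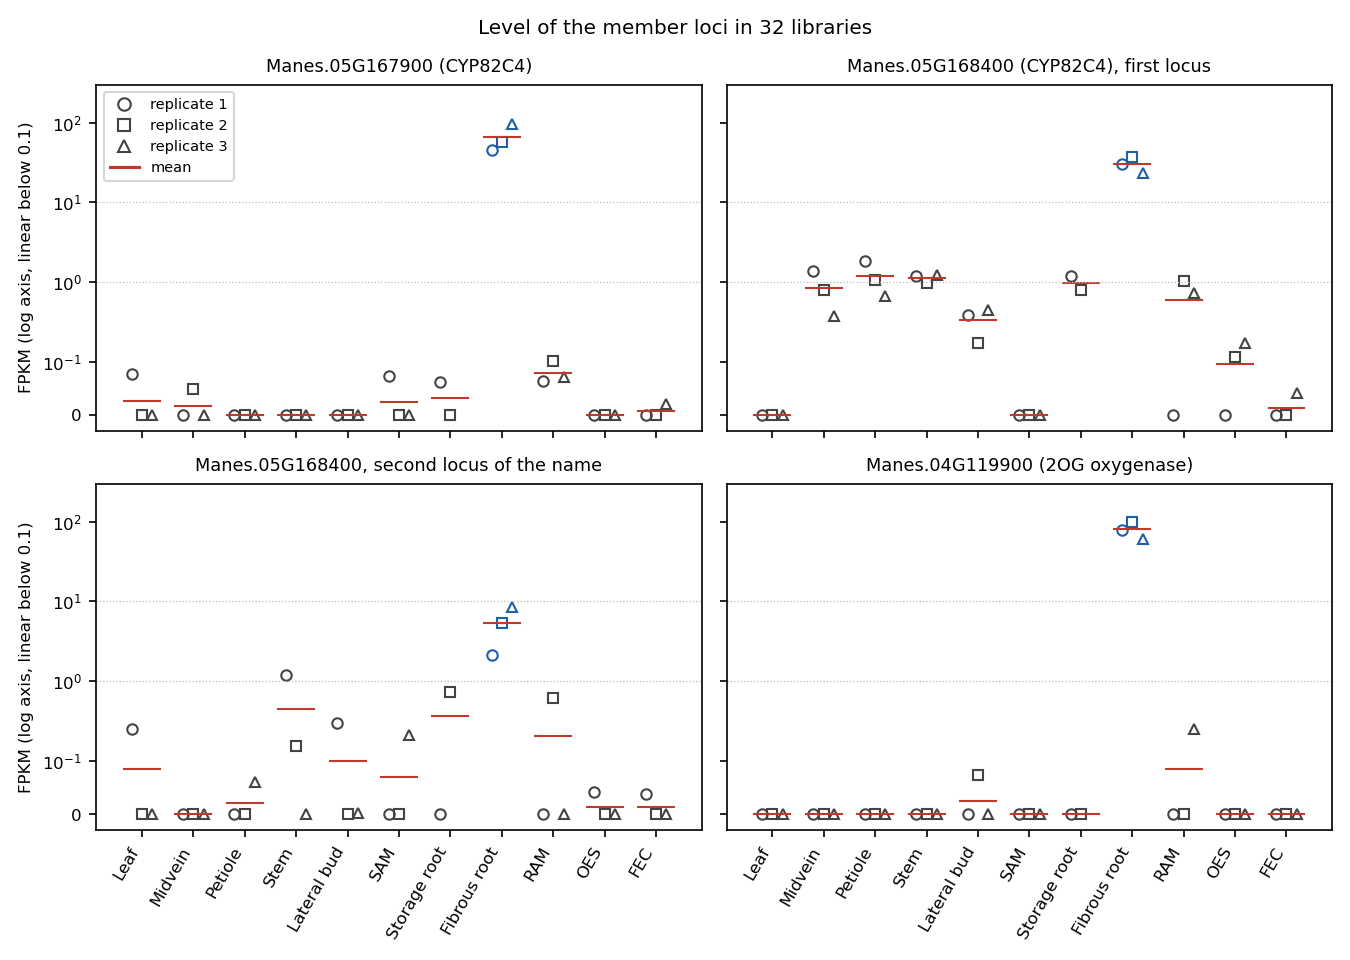
FPKM of the 4 member loci (vertical axis, logarithmic above 0.1 and linear below it) in each of 32 libraries grouped by tissue/organ type; symbols mark replicates, red lines means, and dotted lines 1 and 10 FPKM. Fibrous root lies at 23.2 to 100 FPKM for Manes.05G167900, Manes.04G119900 and the first locus of Manes.05G168400, and no other library exceeds 1.85 FPKM.

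The share of a gene's summed tissue/organ means that falls in fibrous root puts the members on one scale. It was 99.9% for Manes.04G119900, 99.7% for Manes.05G167900 and 85.3% for the first locus of Manes.05G168400. Over the 12843 named loci of at least 10 FPKM in fibrous root the median share was 9.06%. Of these loci, 17 were above 10 FPKM in every fibrous root library and below 1 FPKM in every other library, limits that the study used to call a gene uniquely expressed. Manes.04G119900 and Manes.05G167900 are inside these limits, and the first locus of Manes.05G168400 is outside them, with 7 other libraries above 1 FPKM: petiole 1 and 2, stem 1 and 3, midvein 1, storage root 1 and RAM 2, from 1.03 to 1.85 FPKM.

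The members varied more between the fibrous root libraries than most genes did. The coefficient of variation was 24.3% for Manes.04G119900, 39.2% for Manes.05G167900 and 23.1% for the first locus of Manes.05G168400, beside a median of 12.7% over the 12843 loci. Fibrous root 3 set the members apart from each other. It was the highest library for Manes.05G167900, at 1.85 times the mean of the other fibrous root libraries, and the lowest for Manes.04G119900 (0.683 times) and for the first locus of Manes.05G168400 (0.691 times). Over the loci of at least 10 FPKM that ratio had a median of 0.953, a 5th percentile of 0.624 and a 95th percentile of 1.63, and of these members only Manes.05G167900 lay outside that range. Without fibrous root 3, the mean of Manes.05G167900 was 51.4 FPKM, below the 89.9 FPKM of Manes.04G119900.

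The second locus named Manes.05G168400 is a limit on the values of that gene. It stood at 2.15, 5.29 and 8.46 FPKM in fibrous root 1, 2 and 3, on 42.7, 93.8 and 134 estimated fragments, and reached 1.18 FPKM in stem 1 and 0.728 FPKM in storage root 2. The fragments of both loci are fractional in 23 libraries, but their sum is a whole number, within 0.001, in all 32. The sum was 682, 803 and 529 in fibrous root, of which the second locus held 6.26%, 11.7% and 25.3%. Adding the FPKM of both loci gave 32.1, 42.4 and 31.7, so fibrous root 1 and 3 were nearly level once both were counted, and the ratio of fibrous root 3 to the others rose from 0.691 to 0.849. Outside fibrous root the share moved between libraries of one type, for example 47.7% of 52 fragments in stem 1 and 0% of 21 in stem 3. How the authors' software divided the fragments between these loci was not tested, and the level of either locus alone is uncertain for that reason. The library kit does not mark the strand, so reads from overlapping or antisense transcripts cannot be told apart. Manes.05G167900, Manes.04G119900 and every other locus of the 2OG oxygenase stretch had whole fragment counts in all libraries.

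**Figure D2:**
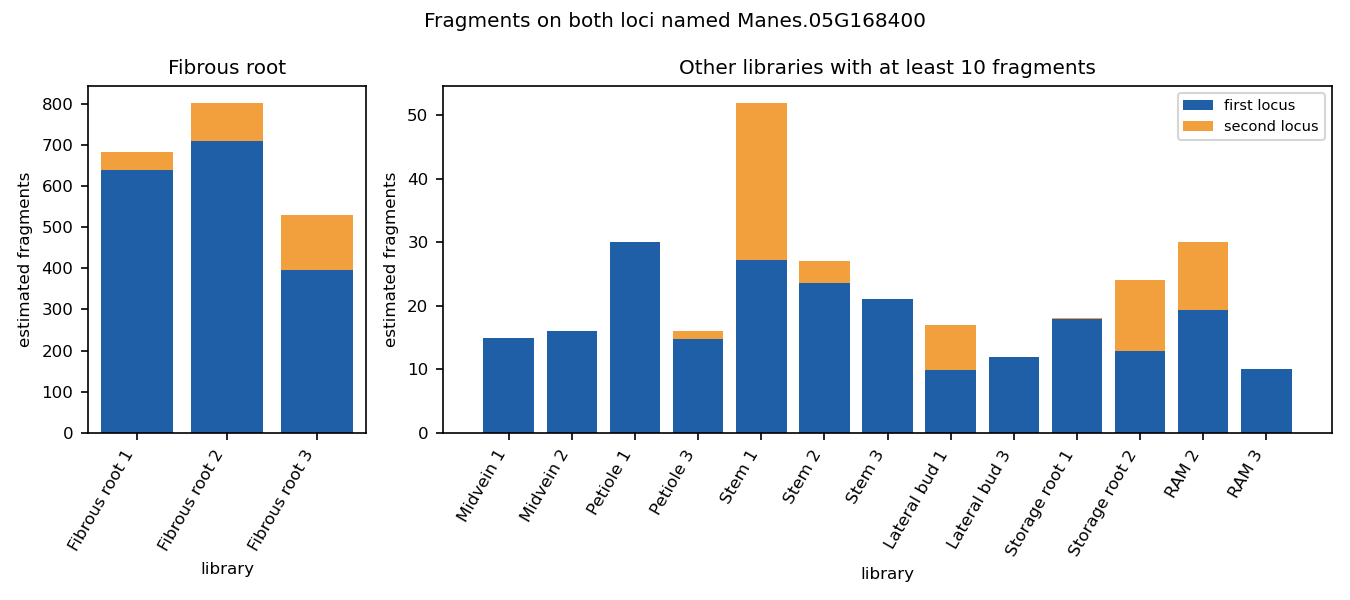
Estimated fragments on the first (blue) and second (orange) locus named Manes.05G168400, stacked, in the fibrous root libraries (left) and in the 13 other libraries with a sum of at least 10 (right, another scale). The second locus holds 25.3% of 529 fragments in fibrous root 3 and 6.26% of 682 in fibrous root 1.

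Manes.04G119900 is the fourth of 6 consecutive IDs, Manes.04G119600 to Manes.04G120100, all annotated as 2OG-Fe(II) oxygenases. They span 17714 bases of chromosome 4, from 25010667 to 25028380, with 1003 to 2740 bases between neighbours, and Manes.04G119900 itself runs from 25020299 to 25021602. The CYP82C stretch on chromosome 5 was taken from Manes.05G166900 to Manes.05G168500. It holds 17 loci, of which 7 are annotated as CYP82C, among them the first locus of Manes.05G168400. The member Manes.05G167900 is not among the 7: the study's gene lists do not annotate it, and its CYP82C4 name comes from the study's figure. Manes.05G168300 ends at 23362862 and Manes.05G168500 starts at 23377856, on either side of that locus.

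The neighbours of Manes.04G119900 were root genes too, but they were shared out differently between fibrous root and RAM. Manes.04G119600 stood at 67.8, 90.5 and 88.6 FPKM in fibrous root and at 56.0, 27.1 and 35.9 FPKM in RAM. Manes.04G120100 had means of 71.6 ± 18.2 FPKM in fibrous root, 21.4 ± 9.77 FPKM in RAM and 14.6 FPKM in OES (SD, n = 3). Both were at most 0.207 FPKM in leaf and storage root. Manes.04G120000 followed the member most closely, at 29.1, 37.5 and 12.1 FPKM in fibrous root and 0, 2.44 and 0.673 FPKM in RAM.

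Manes.04G119700 and Manes.04G119800 had the opposite balance. Manes.04G119700 stood at 0.914, 1.67 and 2.70 FPKM in fibrous root and at 24.4, 60.5 and 41.9 FPKM in RAM, where the member Manes.04G119900 had at most 2 fragments. In the edgeR quasi-likelihood fit, with p-values adjusted over all loci tested, Manes.04G119700 was lower in fibrous root than in RAM (log2 fold change -4.72 ± 0.47 SE, adjusted p = 1.8e-06), and so was Manes.04G119800 (-3.05 ± 0.64, adjusted p = 0.0026). Manes.04G120000 was higher in fibrous root than in RAM (4.49 ± 0.93, adjusted p = 0.0014). With DESeq2 neither Manes.04G119800 (adjusted p = 0.71) nor Manes.04G120000 (adjusted p = 0.56) passed. Manes.04G119600 and Manes.04G120100, at 2.07 and 3.34 times their RAM means, did not reach the 4-fold limit for a call. No locus of this stretch exceeded 1 FPKM on average in leaf, midvein, petiole, stem, lateral bud, SAM, storage root or FEC.

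The CYP82C stretch was more mixed. Manes.05G168200 and Manes.05G168300, annotated as CYP82C like the member beside them, were highest in fibrous root. Manes.05G168200 stood at 33.5, 43.5 and 39.1 FPKM in fibrous root, more evenly than either member, and at 0.0652, 7.04 and 3.92 FPKM in RAM. Manes.05G168300 stood at 6.53, 8.31 and 4.66 FPKM in fibrous root and at 0.0648, 1.75 and 0.217 FPKM in RAM. RAM 1 was the lowest RAM library and RAM 2 the highest for both loci, as for Manes.05G168400. Both loci passed the test against RAM (log2 fold changes 3.28 ± 0.71 and 2.75 ± 0.78 SE, edgeR adjusted p = 0.00026 and 0.0042).

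Some other CYP82C loci of the stretch had their highest mean in leaf. Manes.05G167000 had means of 28.0 ± 12.9 FPKM in leaf, 14.8 FPKM in midvein and 14.2 ± 0.980 FPKM in fibrous root. It was not called between fibrous root and leaf, but was called higher in fibrous root than in storage root (1.20 FPKM) and RAM (0.297 FPKM). The locus of Manes.05G166900 and Manes.05G167200 stood at 33.9 ± 18.0 FPKM in leaf and 5.46 ± 2.56 FPKM in fibrous root, and Manes.05G168500 at 10.5 ± 2.06 and 1.96 ± 0.498 FPKM. The latter pair of loci was lower in fibrous root than in leaf (edgeR adjusted p = 9e-06 and 4.9e-10). Manes.05G168500, also at 7.13 FPKM in lateral bud and 6.91 FPKM in midvein, directly follows the member Manes.05G168400. Manes.05G166900, Manes.05G167000 and Manes.05G167200 overlap in position, and their fragments are fractional in 5 to 11 libraries, so how these loci divide them is uncertain.

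The unannotated loci next to Manes.05G167900 did not share its profile. Manes.05G167800 was present in every tissue/organ type, from 10.3 FPKM in RAM to 42.4 FPKM in storage root, and Manes.05G168000 had a mean of 0.144 FPKM in fibrous root and 0 elsewhere. Manes.05G167100 was highest in SAM, at 57.0 FPKM. Manes.05G167700, a CYP82C locus, stood at 5.39 FPKM in petiole, 5.0 FPKM in stem and 3.40 FPKM in fibrous root. Manes.05G167300 ranged from 0.547 to 2.37 FPKM, Manes.05G168100 reached 3.13 FPKM in OES, and Manes.05G167400 reached 1.79 FPKM in lateral bud 2. Manes.05G167500 was at 0 in every library, and Manes.05G167600 did not exceed 0.0907 FPKM.

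**Figure D3:**
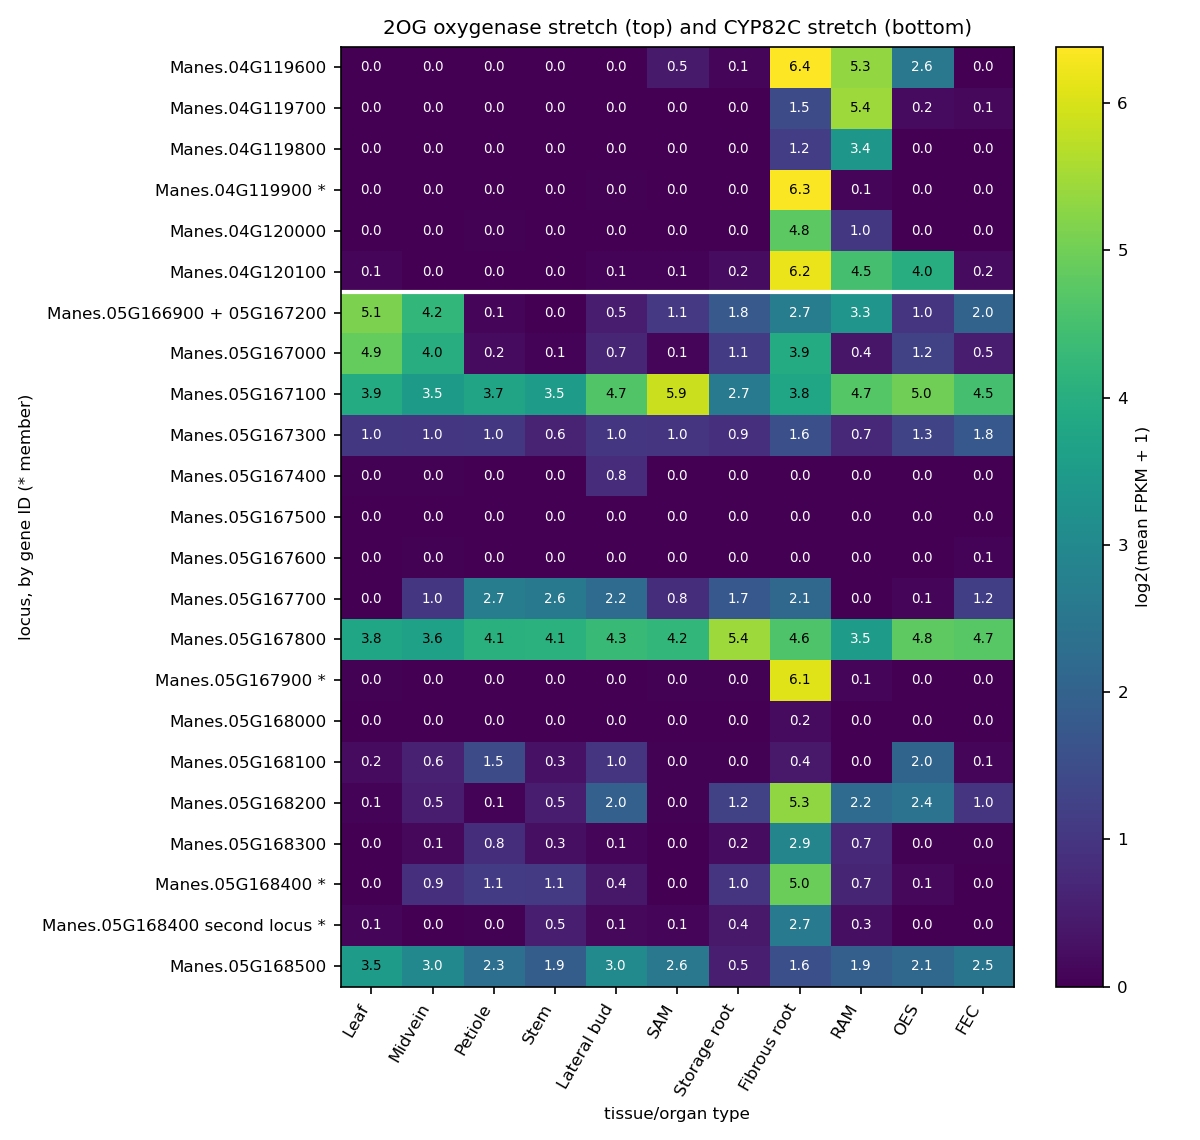
Mean level per tissue/organ type, as log2(mean FPKM + 1), of the 6 loci of the 2OG oxygenase stretch (top) and the 17 loci of the CYP82C stretch (bottom), ordered by gene ID with members starred. The 2OG oxygenase loci are limited to fibrous root, RAM and, for 2 of them, OES, while CYP82C loci peak in different tissues.

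Over both stretches without the members, 19 loci were left and 14 were tested in each comparison. A locus was called when its adjusted p was under 0.05 and its ratio of mean FPKM above 4. Against leaf 8 were called higher in fibrous root and 2 lower, where 15.2% and 14.5% of all 24723 loci tested were called (29.7% in either direction). Against storage root 9 were called higher and 0 lower (1 had an unadjusted p under 0.05 in that direction), where 16.4% of 23420 loci were called higher and 6.48% lower (22.9% in all). Against RAM 5 were called higher and 2 lower, where 12.2% and 10.3% of 24053 loci were called (22.5% in all). Of these, the 5 other loci of the 2OG oxygenase stretch were higher than in leaf and than in storage root, and in 4 and 3 of them the leaf or storage root libraries were at 0. With DESeq2 3 of the 5 were called in both comparisons. With such loci set to the bound that a floor of 3 fragments gives, the median log2 fold change of both stretches was 1.79 against leaf, 2.35 against storage root and 1.09 against RAM, beside 0.11, 0.06 and -0.07 over all loci tested. These comparisons share the fibrous root libraries. The study's own lists of genes changed in these samples hold some of the loci, so the counts are not independent of it.

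Outside the stretch, 4 loci carried a CYP82 annotation. All 4 are in the study's list of genes changed between OES and FEC, and CYP82 genes without an annotation were not examined. Manes.12G048600 had means of 355 FPKM in OES, 75.4 FPKM in RAM and 22.6 FPKM in fibrous root. Manes.12G048900 was an FEC gene, at 74.7 FPKM there and 0.662 FPKM in fibrous root. The locus of Manes.18G026100, Manes.18G026200 and Manes.18G026300 stood at 92.0 ± 13.2 FPKM in fibrous root and 86.7 ± 20.5 FPKM in storage root (n = 2), so a CYP82 locus more abundant than either member in fibrous root was as abundant in storage root within the SD. Manes.13G050400 was highest in leaf (11.4 FPKM) and stood at 2.1 FPKM in fibrous root.

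Beside the members, 3 gene lists on root iron acquisition and coumarin secretion were made from the words of the study's gene annotations. Such words do not show that a listed gene has a role in either. The lists hold 44 loci in all: 26 for iron uptake and homeostasis, 4 for entry into the phenylpropanoid pathway, and 14 for plasma membrane proton pumps and PDR transporters. Coumarins derive from the phenylpropanoid pathway. The annotations cover only genes that the study called as changed in these samples, so the lists are not independent evidence of a direction. Against leaf 14 of 40 tested were called higher in fibrous root and 10 lower, beside 15.2% and 14.5% of all loci tested. Against storage root the counts were 22 and 6 of 36, beside 16.4% and 6.48%, and against RAM 14 and 4 of 37, beside 12.2% and 10.3%. The median log2 fold changes, with loci at 0 set to their bound, were 0.65, 3.03 and 0.39.

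Among the iron genes, 9 were called higher and 6 lower of 24 tested against leaf, 11 and 5 of 20 against storage root, and 6 and 2 of 21 against RAM. Over all loci tested 15.2% and 14.5%, 16.4% and 6.48%, and 12.2% and 10.3% were called in these directions. Without fibrous root 2 the 5 fell to 3, and without RAM 2 the 2 fell to 1. Higher calls were lost too. Those of Manes.01G130600 and of the SufD locus Manes.03G172500 over leaf were lost without leaf 3 and without fibrous root 3. Manes.05G031600 stood at 0.281 and 0.505 FPKM in fibrous root 1 and 2. Without fibrous root 3 it was under the limit of 1 FPKM and was not tested. Nicotianamine synthase 4 (Manes.09G176800), which makes a chelator that carries iron within the plant, was at 89.1, 118.6 and 231 FPKM in fibrous root and at most 1.49 FPKM in RAM. Outside fibrous root it was highest in FEC, at 5.07, 7.85 and 3.92 FPKM. It was higher than in RAM by a log2 fold change of 6.82 ± 0.53 SE (edgeR adjusted p = 1e-09). ZRT/IRT-like protein 2 (Manes.01G170500), of a family of metal uptake transporters, stood at 60.8 ± 29.0 FPKM in fibrous root and 19.6 ± 12.2 FPKM in leaf, and the locus of Manes.18G080100 and Manes.18G080200, annotated NRAMP metal ion transporter 6, at 49.7 ± 28.9 FPKM in fibrous root and 40.4 ± 25.3 FPKM in RAM.

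The ferric reductases, which reduce iron, differed among themselves. Ferric reduction oxidase 2 (Manes.01G254300) had a mean of 4.82 ± 0.826 FPKM in fibrous root and 17.2 ± 4.78 FPKM in leaf, and was called higher in fibrous root than in storage root (0.471 FPKM) and RAM (0.493 FPKM). Manes.01G130600, of the cytochrome b561/ferric reductase family, was at 6.64 ± 0.629 FPKM in fibrous root. It was called higher than in leaf (1.64 FPKM) and storage root (0.819 FPKM). Its ratio to leaf was 4.05, and the call over leaf was lost without leaf 3 or fibrous root 3. Manes.06G073500, of the same family, was called lower in fibrous root (5.16 ± 1.06 FPKM) than in storage root (48.5 FPKM, edgeR adjusted p = 1.6e-09). It was not called against leaf or RAM. Manes.01G246500, also annotated cytochrome b561/ferric reductase, stood at 3.1 ± 2.08 FPKM in fibrous root. It was called lower than in storage root (13.9 FPKM), a call lost without fibrous root 2. It was called higher than in leaf and RAM (0.293 FPKM). A second gene annotated ferric reduction oxidase 2 (Manes.05G031600) stood at 0.281, 0.505 and 4.26 FPKM in fibrous root, so most of its mean came from fibrous root 3. It was at 0 in leaf and storage root. It was called higher than in leaf with edgeR (adjusted p = 0.0062) but not with DESeq2 (adjusted p = 0.29). Ferric reduction oxidase 6 (Manes.06G016800) had a mean of 219 ± 100 FPKM in leaf and 0.354 FPKM in fibrous root. Ferric reduction oxidase 3 (Manes.06G151600) and YELLOW STRIPE like 1 (Manes.01G051800) were also lower in fibrous root than in leaf, at 0.12 and 0.557 against 21.2 and 22.5 FPKM. Among the vacuolar iron transporters, which move iron into the vacuole, Manes.02G178400 stood at 5.18 FPKM in fibrous root and 0.227 FPKM in RAM, and Manes.15G136600 at 1.3 and 11.9 FPKM. Ferritin 2 (Manes.07G134600), an iron store, was lower in fibrous root (98.0 ± 18.5 FPKM) than in storage root (489 ± 80.6 FPKM, n = 2; log2 fold change -2.16 ± 0.28 SE, edgeR adjusted p = 5.7e-07). The list took in the cytochrome b561 and SufD loci by their words alone.

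Of the pumps and transporters, 4 were called higher and 4 lower of 12 tested against leaf, 9 and 1 of 12 against storage root, and 7 and 1 of 12 against RAM, beside the same shares of all loci (15.2% and 14.5%, 16.4% and 6.48%, 12.2% and 10.3%). The lower call against RAM, H(+)-ATPase 7 (Manes.01G085000), was lost without RAM 1. So was the higher call against RAM of the locus of Manes.04G101800 and Manes.04G101900. H(+)-ATPase 2 (Manes.06G022300), of the pumps that acidify the soil around roots, stood at 656, 784 and 840 FPKM in fibrous root, above each member, and at 40.7, 46.4 and 46.3 FPKM in RAM. It did not exceed 0.509 FPKM in leaf or storage root, a log2 fold change of 12.12 ± 0.52 SE over leaf (edgeR adjusted p = 1.6e-16). Autoinhibited H(+)-ATPase isoform 10 (Manes.04G152300) was at 8.77 ± 1.44 FPKM in fibrous root, 18.1 FPKM in leaf and 0.59 FPKM in RAM. The largest PDR level in fibrous root was 128 ± 12.4 FPKM, at the locus of Manes.04G105800, Manes.04G106000 and Manes.04G106100, annotated pleiotropic drug resistance 12. That locus was also at 93.4 ± 36.5 FPKM in RAM and was not called between fibrous root and RAM. The largest ratios to RAM were those of pleiotropic drug resistance 11 (the locus of Manes.09G059200 and Manes.09G059300, 12.1 against 0.138 FPKM), which was higher still in storage root (53.9 FPKM), H(+)-ATPase 11 (Manes.15G175300, 25.5 against 0.565 FPKM) and pleiotropic drug resistance 1 (the locus of Manes.04G133700 and Manes.04G133800, 6.75 ± 5.93 SD against 0.257 FPKM, with a call over leaf that was lost without fibrous root 3 or leaf 2). Pleiotropic drug resistance 4 (Manes.16G064000) was lower in fibrous root than in leaf, at 2.26 and 33.3 FPKM. So was another pleiotropic drug resistance 12 locus (Manes.03G018600 and Manes.03G018700), at 0.191 times its leaf mean of 44.6 FPKM. Another H(+)-ATPase 11 gene, Manes.14G073900, stood at 25.8 FPKM in fibrous root, 110 FPKM in leaf and 36.4 FPKM in RAM. It was called lower than in leaf (edgeR adjusted p = 1.1e-07), a call lost without leaf 2, and was not called against RAM. Both these loci were called higher than in storage root.

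The phenylpropanoid list was small, with calls in both directions against RAM. Against leaf its 4 loci gave 1 call higher in fibrous root and 0 lower (2 and 1 at an unadjusted p under 0.05). Against storage root the counts were 2 and 0 (2 and 0 at that limit), and against RAM 1 and 1. Over all loci tested 15.2% and 14.5%, 16.4% and 6.48%, and 12.2% and 10.3% were called in these directions. With 4 loci no share of the list can be set against these. The higher call against RAM, Manes.04G018000, was lost without RAM 3. 4-coumarate:CoA ligase 1 (Manes.04G095300), which activates the acids that coumarins are built from, had a mean of 71.9 ± 14.2 FPKM in fibrous root and 5.06 ± 3.8 FPKM in leaf. It was also at 92.5 FPKM in storage root and 97.5 FPKM in RAM, and was not called against either. Phenylalanine ammonia lyase 1, the first enzyme of the pathway, was at 49.1 ± 1.17 FPKM in fibrous root for Manes.07G098700 and at 6.57 ± 1.57 FPKM for Manes.04G018000. Manes.07G098700 was also at 91.2 FPKM in RAM and 44.4 FPKM in storage root, and was not called in any comparison. Manes.04G018000 was at 15.6 FPKM in leaf and was not called against it. The locus of Manes.15G136300 and Manes.15G136400, a caffeoyl-CoA 3-O-methyltransferase, was at 3.54 ± 1.27 FPKM in fibrous root and 126 ± 39.0 FPKM in RAM, lower by a log2 fold change of -5.31 ± 0.46 SE (edgeR adjusted p = 9e-10).

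**Figure D4:**
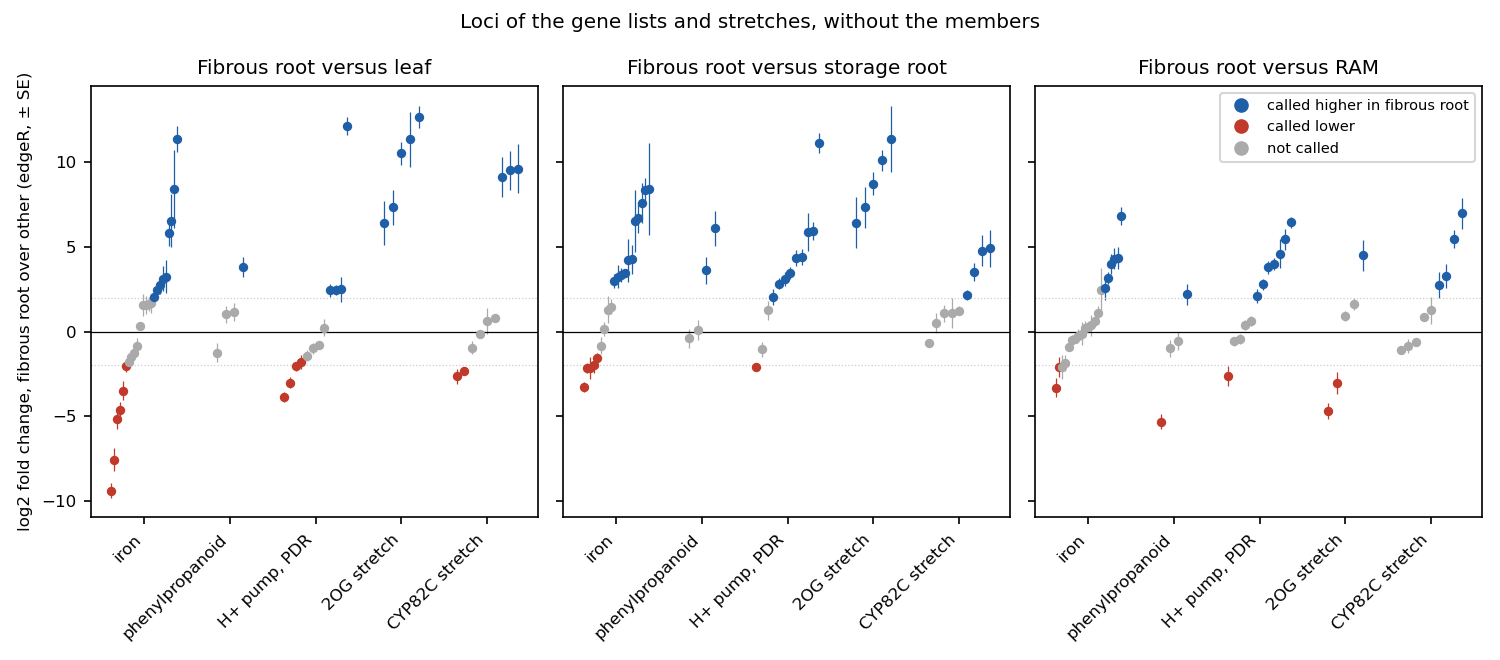
Log2 fold change of fibrous root over leaf, storage root and RAM (vertical axis, edgeR, bars are SE) for each tested locus of 3 gene lists and of both stretches without the members; blue and red mark loci called higher and lower, gray those not called. All 5 loci of the 2OG stretch are blue against leaf and storage root, while against RAM 1 is blue and 2 are red; where the other tissue was at 0 the fitted value depends on a prior count.

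The high level of Manes.05G167900 in fibrous root 3 was shared by several iron genes and not by Manes.04G119900 or the first locus of Manes.05G168400. Among the 8 iron list loci of at least 10 FPKM in fibrous root, 4 had a ratio of fibrous root 3 to the other fibrous root libraries above the 95th percentile of all such loci, and 1 was below the 5th. The 4 were the NRAMP locus (2.47), nicotianamine synthase 4 (2.22), ZRT/IRT-like protein 2 (2.11) and YELLOW STRIPE like 3 (Manes.01G038100, 1.70), beside 1.85 for Manes.05G167900 and 2.27 for the second locus of Manes.05G168400. Iron regulated transporter 3 (Manes.16G080800, 0.420) lay at the other end, as did Manes.04G120000 of the 2OG oxygenase stretch (0.363). None of the 7 pump and transporter loci of that level lay outside, and H(+)-ATPase 2 was at 1.17. Below that level, the pleiotropic drug resistance 1 locus stood at 3.17, 3.49 and 13.6 FPKM in fibrous root 1, 2 and 3. The rise was not limited to iron genes. Manes.11G029900 (14.3, 16.2 and 27.6 FPKM) and Manes.10G021800 (11.1, 17.3 and 28.9 FPKM), outside the iron list, had it as well. These ratios set 1 library against 2 and have no test.

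**Figure D5:**
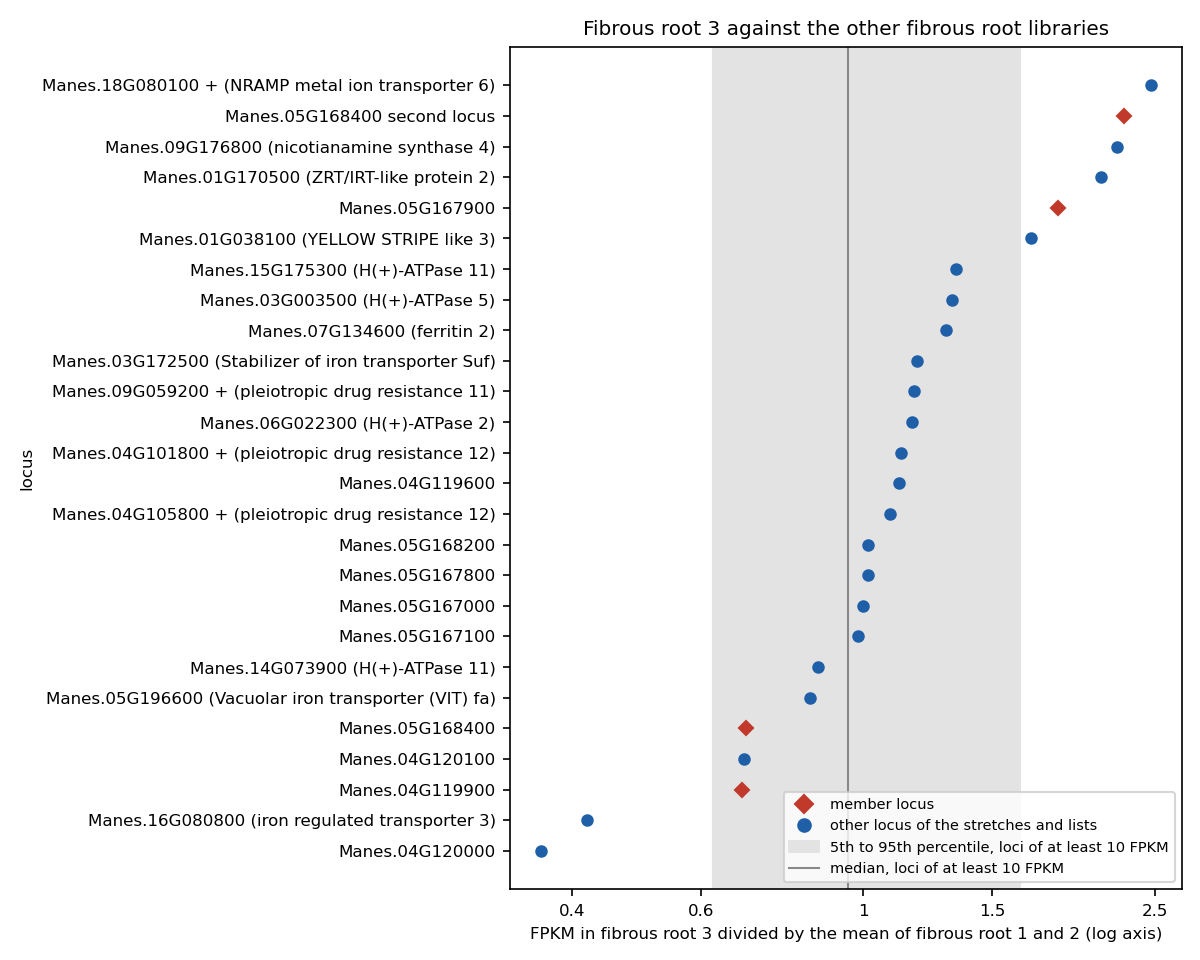
Ratio of FPKM in fibrous root 3 to the mean of fibrous root 1 and 2 (logarithmic axis) for the member loci (red) and for the 22 other loci of the stretches, the iron list and the pump list with at least 10 FPKM in fibrous root (blue). The gray band is the 5th to 95th percentile of all loci of that level, 0.624 to 1.63; Manes.05G167900, the second locus of Manes.05G168400 and 4 iron list loci lie above it, while Manes.04G119900 and the first locus of Manes.05G168400 lie inside it near its lower end.

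The genes most like each member over the 32 libraries were found by Pearson's correlation of log2(FPKM + 1) across 27851 named loci, as a description: libraries of one tissue/organ type are not independent, and any gene limited to fibrous root scores high. For Manes.05G167900 the first was Manes.11G149900, named nitrate transporter 2.4 by the study (r = 0.999), at 115, 149 and 223 FPKM in fibrous root and at most 0.158 FPKM on average in any other type. It had the same order of the fibrous root libraries as the member. It was followed by Manes.06G031500 (a leucine-rich receptor-like protein kinase), Manes.11G029900, Manes.04G018800 (cyclic nucleotide-gated channel 15) and Manes.10G021800 (a subtilase), with means of 3.60 to 19.4 FPKM in fibrous root.

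For Manes.04G119900 the list was Manes.11G119900 (r = 0.999), Manes.S073400, Manes.16G063400, Manes.17G053400 and again Manes.04G018800, with means of 3.51 to 30.9 FPKM in fibrous root. Manes.17G053400 came nearest to its level, at 24.5, 41.4 and 26.8 FPKM in fibrous root. For Manes.05G168400 the likeness was lower, led by terpene synthase 21 (Manes.06G175600, r = 0.961), which stood at 5.87 ± 0.584 FPKM in fibrous root and 0.270 FPKM in midvein. The next were Manes.13G125300, Manes.14G127100, Manes.11G068900 and Manes.08G088600, with means of 14.1 to 101.0 FPKM in fibrous root and 0.923 to 1.46 FPKM in the next tissue/organ type. The members correlated with each other at r = 0.993 (Manes.04G119900 with Manes.05G167900), 0.941 (Manes.04G119900 with Manes.05G168400) and 0.933 (the CYP82C4 genes).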

How the data were processed

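The authors trimmed reads with Trimmomatic (0.32), aligned them to cassava assembly AM560-2 v6.1 with TopHat2 (2.0.10 per the labels) and built and quantified loci with Cufflinks and Cuffdiff (2.2.1). Per library and locus the authors deposited an FPKM value, an estimated count of fragments (79.6% of values above 0 were whole) and a scaled fragment signal. The deposited signal served only to express a floor of 3 fragments in FPKM. A further deposited matrix holds the same FPKM and was left out.

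The estimated counts were rounded and tested with edgeR (4.0.16, under R 4.3.3) in 1 quasi-likelihood fit of 11 tissue/organ means over 32 libraries, with TMM factors between 0.720 and 1.15 and a common BCV (biological coefficient of variation) of 0.264. Tested loci averaged 1 FPKM or more in a compared type, and Benjamini-Hochberg adjustment covered all of them. A call needed an adjusted p under 0.05 and a ratio of mean FPKM above 4. SEs were obtained as the log2 fold change over the root of F. Loci without a gene name held 1.73% to 5.76% of fragments and were left out. The procedure was tested on simulated data. Alternatives used DESeq2 (1.42.0), limma (3.58.1), other size factors, filters and fold limits, a replicate block, fits on the compared types, and each library left out. Figures and summaries were made with matplotlib (3.10.9), scipy (1.17.1), numpy (2.4.6) and pandas (2.3.3) under Python (3.11.15).

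The 3 members and all lists were chosen with earlier results of these data known. Named genes are the members, all loci of both stretches, loci of the lists called in at least 1 comparison (mainly the 3 largest and 3 smallest ratios of each list), and the 5 loci most like each member. Manes.07G098700, Manes.16G080800 and the comparison of fibrous root 3 with the other fibrous root libraries were chosen after their values were seen. The study calls the libraries biological replicates, but not which plants they came from, so p-values measure the spread between these libraries. Counting intervals and floors cover counting error only.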

Additional observations from a re-analysis of the deposited data

How the results depend on the processing

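Requiring 10 FPKM in place of 1 lowered the loci called to 4298 against leaf, 2623 against storage root and 3042 against RAM, since fewer loci were tested. Of all 16062, 14653 and 15128 loci tested, 1727, 1498 and 1497 were then called higher in fibrous root and 2571, 1125 and 1545 lower. In the stretches 4 of 9, 5 of 7 and 3 of 8 were higher and 2, 0 and 1 lower. In the pathway lists 6 of 28, 10 of 19 and 7 of 19 were higher and 8, 5 and 2 lower. Against leaf the pathway lists thus had more lower than higher calls, unlike at 1 FPKM. Without the fold limit 16208, 13895 and 15338 loci passed. Against RAM 8 of 14 loci of the stretches were then higher and 4 lower, beside 7130 and 8208 of all 24053 tested. Leaving out 1 library in turn gave 7247 to 7353, 4494 to 5645 and 5042 to 5905 calls (the lowest against storage root came without storage root 2), with 8 to 8, 8 to 9 and 5 to 5 loci of the stretches and 10 to 15, 21 to 22 and 13 to 14 of the pathway lists higher in fibrous root. The mean FPKM in fibrous root then ran from 70.4 to 89.9 for Manes.04G119900, 51.4 to 76.3 for Manes.05G167900, and 26.6 to 33.6 and 3.72 to 6.88 for the first and second locus of Manes.05G168400. With the replicate block 7318, 5315 and 5410 loci were called, and 8, 9 and 5 of the stretches and 14, 22 and 15 of the pathway lists were higher in fibrous root. Deviations of same-numbered libraries correlated at -0.0216 to 0.0771, so the numbers were not taken to pair samples.

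The lists of most similar genes were the least stable result. Over tissue/organ means 0 of the 5 loci stayed for Manes.04G119900, 2 for Manes.05G167900 and 2 for Manes.05G168400. With log2(FPKM + 0.1) 2, 2 and 2 stayed, and among loci of at least 10 FPKM 2, 3 and 4. Of 864 calls of stretch and pathway loci recomputed with all libraries, 812 held, 9 were lost (8 of them with DESeq2) and 43 were not tested. With 1 library left out, 509 of 539 held, 26 were lost and 4 were not tested, and none of either kind reversed. Depth limits the levels outside fibrous root: values at or under 3 fragments give no order.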
